A study of Mus musculus with 12 samples.

Results

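The DNA replication and mitosis genes examined here were 43 genes whose products copy DNA, drive the cell cycle and separate chromosomes. They were chosen by name, and 42 of them, out of 18193 genes measured in all, had a probe set with that gene as its only symbol; Ccnb1 did not and was left out. Each gene was read at its brightest probe set by mean, and the 42 genes had 103 probe sets between them. The samples were cells of mouse embryos at embryonic day 8.0, from a line of mixed C57BL/6 and FVB background that carries ER71 EYFP, a yellow fluorescent reporter. There were 4 groups of 3 arrays each: EYFP positive cells of ER71 mutants, EYFP negative cells of ER71 mutants, EYFP positive cells of wild types and EYFP negative cells of wild types. ER71 is an older name of Etv2, an ETS-family transcription factor needed for blood and endothelium. Neither the sequence that drives EYFP, nor the altered stretch of ER71, nor the number of embryos behind a sample is given in the labels, so p-values measure the spread between these samples, part or all of which may be technical.

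Before S phase, the helicase made of Mcm2 to Mcm7 is loaded on DNA by Cdc6 and Cdt1, and cyclin-dependent kinases then start it. Cyclins of the D and E types with Cdk4, Cdk6 and Cdk2 release E2F factors from the retinoblastoma protein and its relatives, and E2F factors drive the genes of DNA synthesis. Cyclin B with Cdk1 and the Aurora and Polo kinases run mitosis, and their genes are switched on later in the cycle, largely through promoter elements called CHR and CCAAT. Cells of the early embryo divide quickly, so both sets of genes are active in most of its tissues.

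Promoter windows of 300 bases, 250 before and 50 from the RefSeq start (GRCm38.p6), were on hand for 34 of the 42 genes. They are shown because replication and mitosis genes differed in how often they carried E2F-type and CHR-type letters, and the later sections describe these sets separately. E2F-type letters (TTTCCCGC, TTTGGCGC, TTTCGCGC or TTTGCCGC, either strand) occurred in 7 of 16 windows of replication genes, in 0 of 10 windows of mitosis genes and in 2.26% of all 32851 windows. CHR-type letters (TTTGAA or TTCGAA, either strand) occurred in 9 of 10 mitosis windows, in 4 of 16 replication windows and in 19.2% of all windows. The pentamer CCAAT was in 9 of 10 mitosis windows, in 12 of 16 replication windows and in 37.4% of all. A match is a description of the letters only and was not tested as a site. The 160 bases before the start are given 5′ to 3′ for 6 genes, with E2F-type, CHR-type and CCAAT letters in capitals, which overlap one another in Mcm5 and Mcm6. They are the sliding clamp gene Pcna (chr2:132253181-132253340, minus strand), the helicase genes Mcm5 (chr8:75109349-75109508, plus strand) and Mcm6 (chr1:128359706-128359865, minus strand), the kinase gene Cdk1 (chr10:69352913-69353072, minus strand), the cyclin B gene Ccnb2 (chr9:70421555-70421714, minus strand) and Cdc20 (chr4:118437344-118437503, minus strand), an activator of the anaphase-promoting complex.
Pcna: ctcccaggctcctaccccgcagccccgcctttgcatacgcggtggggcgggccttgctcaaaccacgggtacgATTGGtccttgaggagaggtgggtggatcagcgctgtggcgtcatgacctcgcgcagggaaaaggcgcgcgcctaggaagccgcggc
Mcm5: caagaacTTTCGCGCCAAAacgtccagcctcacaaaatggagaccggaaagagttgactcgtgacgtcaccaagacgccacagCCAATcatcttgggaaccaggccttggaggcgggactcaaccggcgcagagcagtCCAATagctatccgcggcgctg
Mcm6: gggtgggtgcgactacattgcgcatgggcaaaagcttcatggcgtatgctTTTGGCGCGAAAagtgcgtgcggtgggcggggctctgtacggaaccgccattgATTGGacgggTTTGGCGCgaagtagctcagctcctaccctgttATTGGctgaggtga
Cdk1: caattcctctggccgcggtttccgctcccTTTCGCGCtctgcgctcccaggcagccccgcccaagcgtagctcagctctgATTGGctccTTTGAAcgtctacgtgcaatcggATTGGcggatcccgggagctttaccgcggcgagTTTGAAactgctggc
Ccnb2: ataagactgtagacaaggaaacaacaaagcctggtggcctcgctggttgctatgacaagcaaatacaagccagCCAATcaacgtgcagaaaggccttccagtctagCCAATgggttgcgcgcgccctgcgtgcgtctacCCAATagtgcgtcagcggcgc
Cdc20: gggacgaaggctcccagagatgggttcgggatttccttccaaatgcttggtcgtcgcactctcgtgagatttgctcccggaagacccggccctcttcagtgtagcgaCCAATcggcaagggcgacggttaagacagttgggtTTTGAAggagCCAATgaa
The Mcm6 stretch held E2F-type letters with their first bases at -110, -106 and -47, counted from the start. Cdk1 held both kinds, E2F-type at -131 and CHR-type at -71 and -15. Ccnb2 had CCAAT at -87, -54 and -21, and its CHR-type letters began at -167 and at 5, outside the stretch shown. Cdc20 had CHR-type letters at -18. Pcna had only CCAAT, on the opposite strand at -87.

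At its brightest probe set, each of the 42 genes lay above the median of all probe sets on all 12 arrays. Tyms, the dimmest, had 7.09 to 8.08 log2, and the array medians were 6.98 to 7.06. Taking the brightest probe set favours this result, and the same count over all genes is not given here. Values are log2 RMA values, so a difference of 1 is 2-fold. Signals of different probe sets are not on a common scale, and levels are compared only within a gene. Some arrays stood apart. Both wild-type arrays numbered 1 had the Y-linked gene Eif2s3y at 10.8 (positive) and 11.2 (negative), against 4.11 to 4.53 on the other 10 arrays. Mutant positive array 1 had yolk sac endoderm markers at a mean of 9.81, against 6.29 and 6.12 on arrays 2 and 3. Mutant negative array 2 had primitive erythroid markers at 8.05, against 6.09 and 6.05. Etv2 itself was at 7.26 to 7.40 in mutant positive, 7.24 to 7.49 in mutant negative, 10.70 to 11.36 in wild-type positive and 7.50 to 7.85 in wild-type negative cells.

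**Figure D1:**
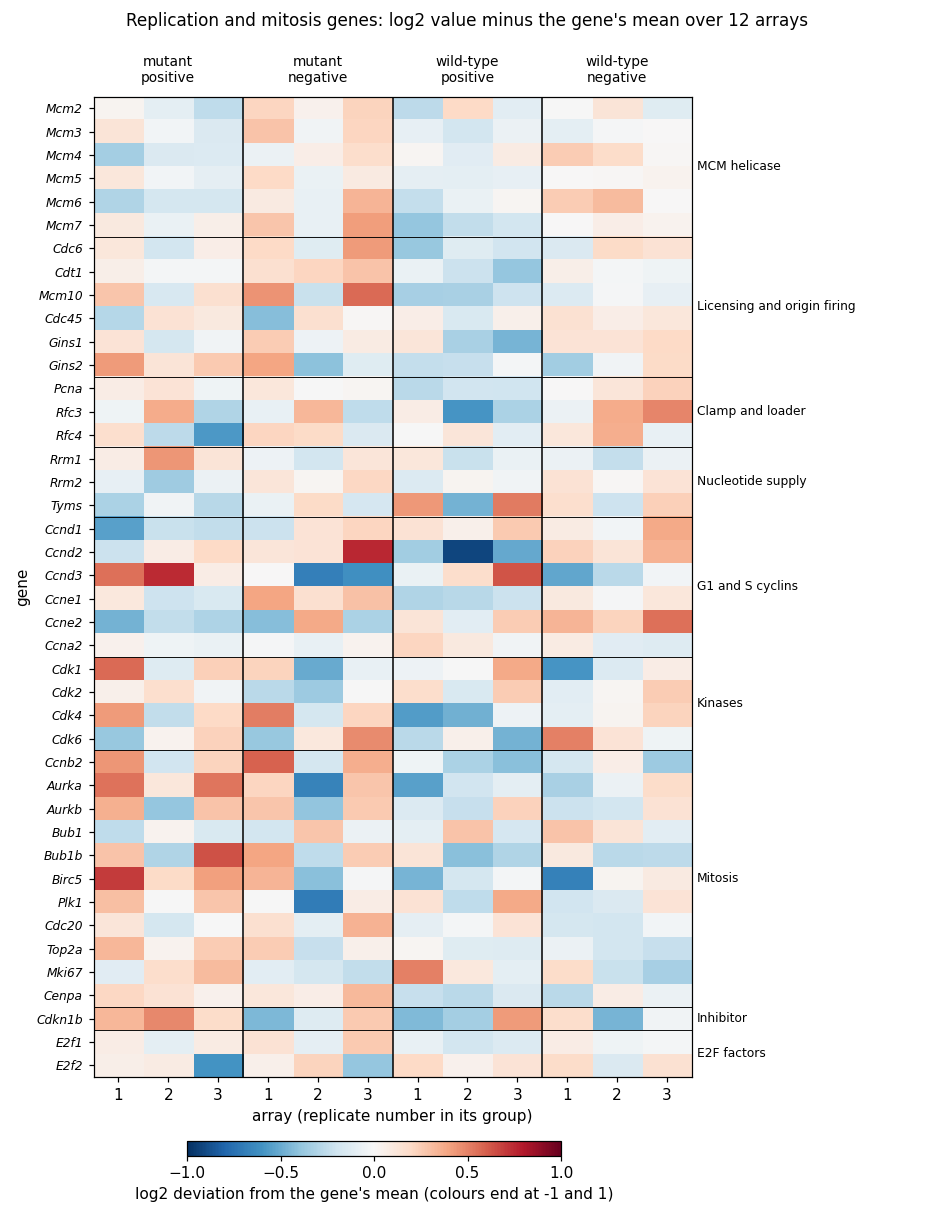
Log2 value of each of the 42 genes on each of the 12 arrays, less the gene's mean over the arrays (colour, from -1 to 1), with genes in rows by role and arrays in columns by group. Ccnd2 and Pcna are below their means on all 3 wild-type positive arrays, and most mitosis genes are lower on the mutant arrays numbered 2 than on the other mutant arrays of the same sort.

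The comparison of positive with negative cells in wild types asks what goes with the reporter when Etv2 is intact. Ccnd2, encoding cyclin D2, an activator of Cdk4 and Cdk6 in G1, fell 1.78-fold in positive cells, and Pcna, encoding the sliding clamp of DNA polymerases, fell 1.26-fold. These were 2 of 42 members past an adjusted p of 0.05 (limma's moderated test, Benjamini-Hochberg over all genes), 4.76% against 8.24% of all genes (3.61% lower). In these mixed samples fewer cells of a type and less RNA per cell cannot be told apart.

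Ccnd2 had 12.80, 12.23 and 12.64 in wild-type positive cells, against 13.38, 13.27 and 13.50 in wild-type negative cells. All 3 positive arrays were below all 3 negative arrays. The difference was -0.83 ± 0.19 log2 (SE, n = 3 per group; 95% interval -1.26 to -0.40; limma adjusted p = 0.0214). In a fit of all probe sets, 6 of the 7 for Ccnd2 were called lower, by -0.70 to -1.39 log2, and the seventh had -0.73 (adjusted p = 0.068). Its adjusted p missed the threshold without wild-type positive array 2 (0.0758), wild-type negative array 1 (0.0673) or 3 (0.084), or both wild-type arrays numbered 1 (0.0684), while the difference stayed between -0.67 and -0.95.

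Pcna had 13.42, 13.49 and 13.49 in wild-type positive cells, against 13.69, 13.81 and 13.92 in wild-type negative cells. Here too the arrays did not overlap, though the difference was small, -0.34 ± 0.09 log2 (SE, n = 3 per group; 95% interval -0.54 to -0.14; limma adjusted p = 0.0464). It lay close to the threshold and was lost under 18 of 22 alternatives (adjusted p up to 0.171), among them every left-out array except wild-type negative array 1. The block of positive and negative arrays of the same number gave 0.0548.

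The other replication genes differed little, and nearly all in the same direction. The 6 Mcm2 to Mcm7 helicase genes, the 6 genes of licensing and origin firing and the 3 of clamp and loader all had a negative difference, with a median of -0.21 log2 and a range of -0.54 to -0.06, against a median of -0.02 and 53.8% negative over all genes. Of these 15, 1 passed the test, Pcna. Arrays of positive and negative cells lay fully apart for 6 of the 15, all lower in positive cells, and among all 42 members for 9, or 21.4%, against 13.3% of all genes lower in this way. No member was higher in positive cells without overlap (all genes 11.9%). Leaving out both wild-type arrays numbered 1 left 14 of 15 negative with a median of -0.20, and the count was 14 or 15 under each of the 22 alternatives.

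Among them Mcm7 had 13.10, 13.23 and 13.30 in wild-type positive cells, against 13.49, 13.55 and 13.52 in wild-type negative cells. Cdt1, which brings the helicase to origins, had 12.90, 12.76 and 12.59 against 13.03, 12.95 and 12.93. Gins1, of the GINS complex that joins the active helicase, had 11.58, 11.13 and 10.99 against 11.59, 11.59 and 11.65. None of the 3 overlapped between positive and negative cells, Gins1 only narrowly, and none passed (adjusted p = 0.19, 0.244 and 0.183). Mcm6, whose promoter is printed above, had -0.29 ± 0.13 (adjusted p = 0.25), and Rfc3, a clamp loader subunit, -0.54 ± 0.23 (adjusted p = 0.215). The 3 genes of nucleotide supply, Rrm1, Rrm2 and Tyms, had 0.06, -0.15 and 0.10.

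Mitosis genes showed no such common sign. Of 11, 6 were negative and 5 positive, with a median of -0.03 log2, and 0 passed. In the fit without pairs 0 also had an unadjusted p under 0.05, against 18.9% of all genes. Their 95% intervals all lay within 2-fold either way, as did 86.6% over all genes. Mki67, a marker of dividing cells, had 13.66, 13.26 and 13.06 in wild-type positive cells, against 13.34, 12.93 and 12.82 in wild-type negative cells, which overlap (0.30 ± 0.18, adjusted p = 0.438). Each positive array was above the negative array of its number. With these pairs as a block limma's adjusted p was 0.175 (unadjusted 0.0383). Plk1, the Polo kinase, had 0.15 and Top2a, the topoisomerase that untangles chromosomes, 0.08.

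Cyclins other than Ccnd2 differed among themselves. Ccne1, encoding cyclin E1, an activator of Cdk2 at the start of S phase, had 12.07, 12.10 and 12.16 in wild-type positive cells, against 12.48, 12.36 and 12.49 in wild-type negative cells. The arrays did not overlap, but the difference of -0.33 ± 0.11 did not pass (adjusted p = 0.0868). Ccnd3, encoding cyclin D3, went the other way, with 9.35, 9.59 and 10.05 against 8.90, 9.14 and 9.39 (0.52 ± 0.24, adjusted p = 0.278). Ccnd1, encoding cyclin D1, had a difference of 0.01 and Ccna2, encoding cyclin A2, of 0.15. Cdk4 had 12.10, 12.18 and 12.61 against 12.56, 12.68 and 12.88 (-0.41 ± 0.21, adjusted p = 0.346). With the positive and negative arrays of a number as a block it was called (adjusted p = 0.0246; 11.9% of all genes called in that fit), as was Ccnd2 (0.00473). Cdk6, the other kinase of the D cyclins, had -0.43 and Cdk1 0.33, neither called, also with the block (adjusted p = 0.0843 and 0.088). The inhibitor Cdkn1b, encoding p27, had -0.01.

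The cell types of these fractions differed strongly. Of 6 markers each, 6 endothelial and 5 primitive erythroid markers were higher in wild-type positive cells, and 5 neural, 4 paraxial, 4 epithelial and 3 yolk sac endoderm markers were lower. Endothelial markers averaged 10.45 to 10.62 per array in wild-type positive and 6.62 to 6.66 in wild-type negative cells, and neural markers 7.32 to 8.71 and 10.50 to 10.82. Dissociation stress markers, 4 of 6 of them higher, averaged 9.12 to 9.85 in wild-type positive and 8.31 to 8.62 in wild-type negative cells. Their part in the differences of replication genes was not tested.

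**Figure D2:**
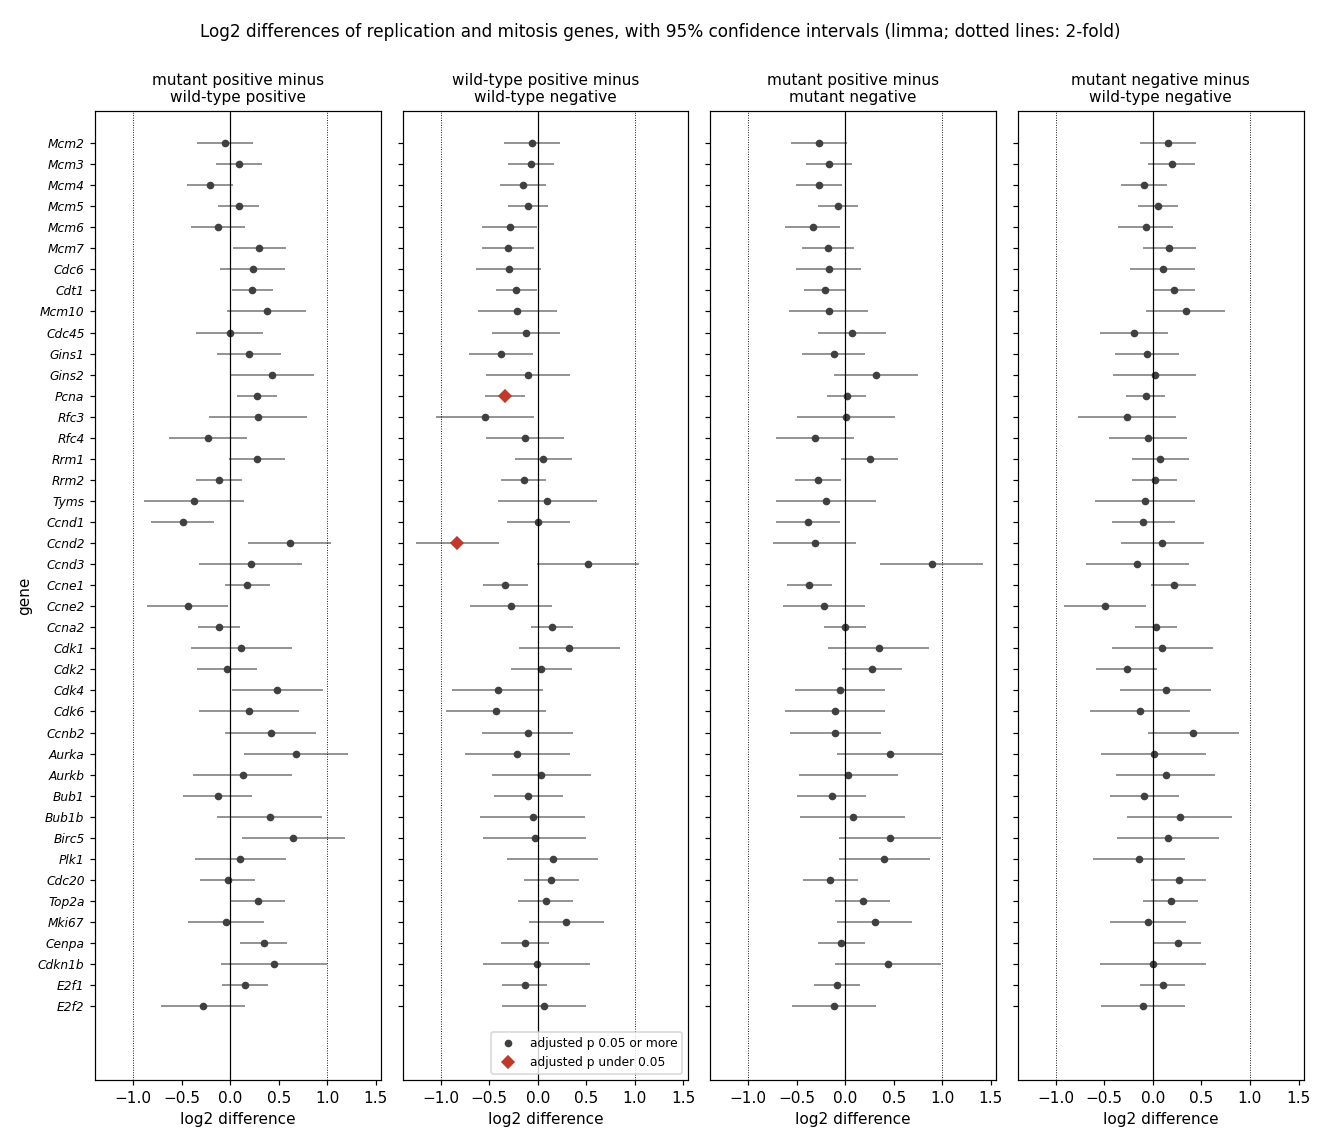
Log2 difference (x axis) of each of the 42 genes (y axis, by role) in 4 comparisons, with limma's 95% confidence interval as a bar; dotted lines mark 2-fold and red diamonds an adjusted p under 0.05. Ccnd2 and Pcna in wild-type positive minus negative cells are the 2 red diamonds, and the helicase, licensing, clamp and loader genes in the same panel all lie left of 0.

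Setting mutant against wild-type positive cells asks how the reporter fraction differs when Etv2 is mutated. None of the 42 members passed, against 7.97% of all genes. At an unadjusted p under 0.05 there were 11, 9 higher and 2 lower in mutant positive cells, 26.2% against 22.3% of all genes (12.8% higher and 9.51% lower). The median difference was 0.16 log2, against 0.01 over all genes, and the members ranged from -0.49 to 0.68. For 39 of 42, the 95% interval lay within 2-fold in both directions (85.2% of all genes). The intervals of the other 3, Ccnd2, Aurka and Birc5, reached past 2-fold higher.

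Ccnd1 had 11.78, 12.10 and 12.07 in mutant positive cells, against 12.47, 12.37 and 12.58 in wild-type positive cells. The 3 mutant arrays were lower without overlap, and the difference of -0.49 ± 0.15 log2 (SE, n = 3 per group; 95% interval -0.81 to -0.16) did not pass (limma adjusted p = 0.0696). It passed under quantile normalization (0.0426), with the number as a block across groups (0.0363) and without mutant negative array 1 (0.0489), an array outside this comparison that enters the shared estimate of the spread. The 2 dimmer Ccnd1 probe sets had -0.46 and -0.24.

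Ccnd2 had 12.93, 13.22 and 13.35 in mutant positive cells, against 12.80, 12.23 and 12.64 in wild-type positive cells. The mutant arrays were all higher, and the difference was 0.61 ± 0.19 (adjusted p = 0.0812; 0.0498 with the number as a block and 0.0407 without mutant negative array 3). Pcna had 13.77, 13.83 and 13.64 against 13.42, 13.49 and 13.49, again without overlap (0.28 ± 0.09, adjusted p = 0.095). This comparison and that of wild-type positive with wild-type negative cells share the wild-type positive arrays, so the 2 sets of values are not independent. In mutants the positive and negative cells had nearly the same Pcna, with a difference of 0.01 log2 (95% interval -0.19 to 0.22).

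Among mitosis genes, 8 of 11 had a positive difference, with a median of 0.28 (52% of all genes were positive). Of the 11, 4 were higher without overlap, 36.4% against 13.8% of all genes. This was not particular to mitosis genes. Of the 15 helicase, licensing, clamp and loader genes 10 were positive, with a median of 0.20, and 33.3% were higher without overlap. Among 37 mitosis genes outside the members 25 were positive, with a median of 0.08, and 13.5% were higher without overlap. Aurka, the Aurora A kinase of the spindle poles, had 9.91, 9.48 and 9.90 in mutant positive cells, against 8.82, 9.18 and 9.27 in wild-type positive cells (0.68 ± 0.25, adjusted p = 0.126). Birc5, encoding survivin, a subunit of the chromosomal passenger complex, had 11.02, 10.51 and 10.73 against 9.86, 10.15 and 10.30 (0.65 ± 0.24, adjusted p = 0.133). Cenpa, the histone H3 variant of centromeres, had 12.97, 12.91 and 12.81 against 12.54, 12.50 and 12.62 (0.35 ± 0.11, adjusted p = 0.0845). Aurka passed without mutant negative array 2 (0.0354) and without both mutant arrays numbered 2 (0.82 log2, 0.021), and Mcm10, a replication initiation factor, passed without both mutant arrays numbered 2 (0.51 log2, 0.0195). The dimmer Aurka probe set had -0.52, and the mean of both 0.08 (0.894). Mki67 and Cdc20 had -0.04 and -0.03, Top2a 0.28 and Plk1 0.10. Dimmer probe sets differed from these values too, down to -0.56 for Top2a and up to 1.38 for Cenpa, neither called.

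Across all members the arrays did not overlap for 11 that were higher and 3 that were lower in mutant positive cells, 26.2% and 7.14%, against 13.8% and 11.8% of all genes. Ccne2, encoding cyclin E2, was among the lower ones, at 10.90, 11.12 and 11.06 against 11.50, 11.27 and 11.63 (-0.44 ± 0.19, adjusted p = 0.205). Cdkn1b had 9.52, 9.67 and 9.37 in mutant positive cells, against 8.75, 8.85 and 9.62 in wild-type positive cells, which overlap (0.45 ± 0.25, adjusted p = 0.329). Averaging the 2 Cdkn1b probe sets gave 0.52 (0.0336). The dimmer of these read 5.32 to 6.16, below the array medians, and did not follow the brightest (r = -0.30). Cdk1 and Cdk6 had 0.11 and 0.19, Mcm2, Mcm6 and Cdc6 -0.05, -0.12 and 0.23, and E2f1 0.15.

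Dimmer probe sets gave calls that the brightest did not for 2 genes. One for E2f2, an activating E2F factor, had 6.90, 7.0 and 6.98 in mutant positive cells, against 8.40, 8.18 and 7.70 in wild-type positive cells, a difference of -1.14 ± 0.23 (adjusted p = 0.0182 in the fit of all probe sets). The brightest E2f2 probe set gave -0.28 ± 0.20 (adjusted p = 0.46), and the mean of both gave -0.71 (0.018). One for Mcm5 had 6.16, 6.57 and 7.12 against 8.51, 8.04 and 8.57, a difference of -1.76 ± 0.33 (adjusted p = 0.013), whereas the brightest gave 0.09 and another 0.48. In negative cells this low Mcm5 probe set had 6.51, 6.57 and 7.27 in mutants, against 8.22, 7.31 and 8.45 in wild types. That difference of -1.21 had the same direction and was not called. The low Mcm5 probe set read 6.16 to 7.27 on mutant and 7.31 to 8.57 on wild-type arrays, against array medians of 6.98 to 7.06. It did not follow the brightest Mcm5 probe set (r = -0.26), whereas the other dimmer one did (0.87). The dimmer E2f2 probe set had an r of 0.095 with its brightest. Which of these probe sets follows the transcript was not tested.

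The marker genes differed here as well. Of 6 each, 6 cardiac, 2 neural and 2 epithelial markers were higher in mutant positive cells, and 5 endothelial, 6 primitive erythroid, 1 paraxial and 1 dissociation stress marker were lower. Cardiac markers averaged 11.69 to 12.00 per array in mutant positive and 9.47 to 10.42 in wild-type positive cells, and primitive erythroid markers 5.95 to 6.07 and 11.43 to 12.11. Their part in the member values was not tested.

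**Figure D3:**
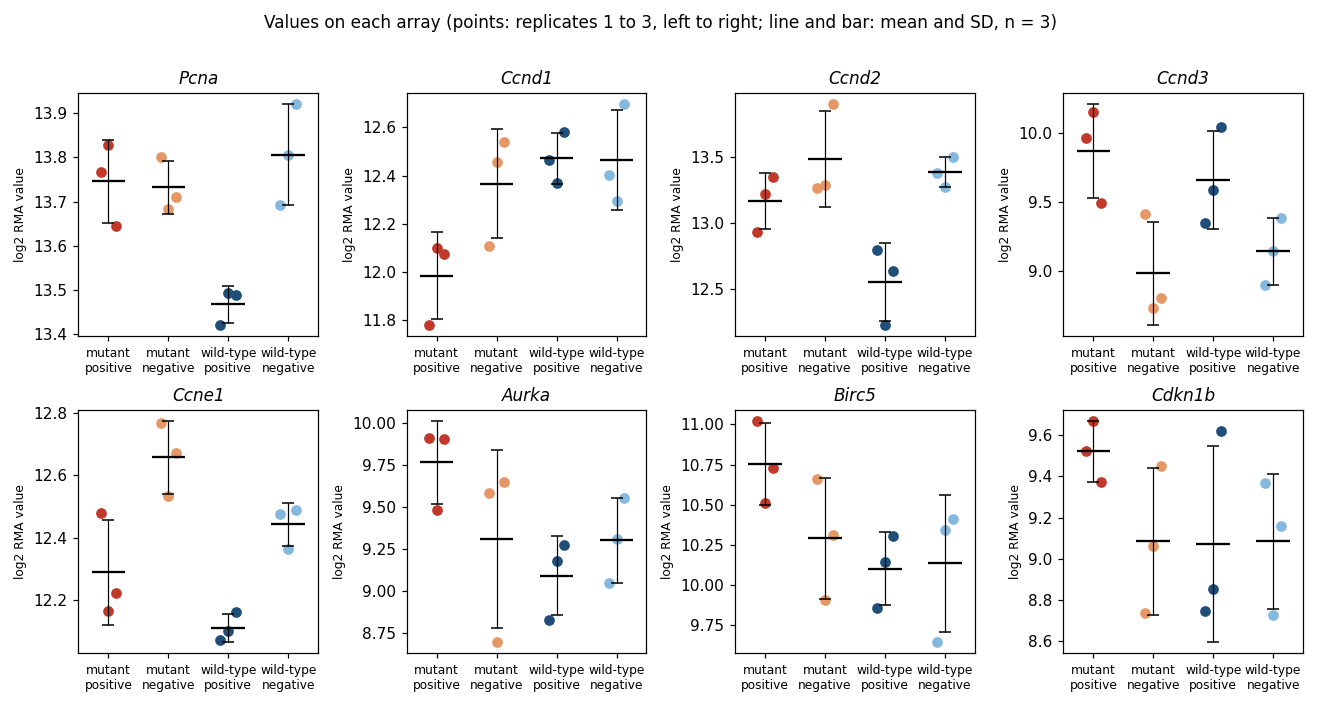
Log2 RMA value (y axis) of 8 members on each array, by group (x axis), with the mean and SD of 3 arrays. Pcna and Ccnd2 are low in wild-type positive cells, and Ccne1 is lower in positive than in negative cells of both genotypes. Ccnd1 is low in mutant positive cells, and Ccnd3 is higher in positive than in negative cells of mutants without overlap.

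The comparison of positive with negative cells in mutants asks what goes with the reporter when Etv2 is mutated. None of the 42 members passed, against 5.36% of all genes, and 7 had an unadjusted p under 0.05, 16.7% against 15.5% of all genes. With the positive and negative arrays of a number as a block, which the arrays bear out, 4 of 42 passed, against 8.17% of all genes. Ccnd3 and Birc5 were higher in mutant positive cells, and Ccnd1 and Ccne1 were lower.

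Ccnd3 had 9.97, 10.16 and 9.49 in mutant positive cells, against 9.42, 8.73 and 8.80 in mutant negative cells. Its arrays did not overlap, and the difference was 0.89 ± 0.24 log2 (SE, n = 3 per group; 95% interval 0.36 to 1.42; limma adjusted p = 0.0596, and 0.0141 with the block). The 2 dimmer Ccnd3 probe sets had 0.06 and -0.04. Ccne1 had 12.48, 12.16 and 12.22 against 12.77, 12.53 and 12.67 (-0.37 ± 0.11, adjusted p = 0.0755, and 0.0441 with the block). It too was without overlap.

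Ccnd1 had 11.78, 12.10 and 12.07 in mutant positive cells, against 12.11, 12.46 and 12.54 in mutant negative cells (-0.38 ± 0.15, adjusted p = 0.214, and 0.0423 with the block). Each positive array was lower than the negative array of its number. Birc5 had 11.02, 10.51 and 10.73 against 10.66, 9.91 and 10.31 (0.46 ± 0.24, adjusted p = 0.409, and 0.0422 with the block). Its groups overlapped, and each positive array was above its negative partner.

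All 6 helicase genes again had a negative difference, with a median of -0.22 (57.4% of all genes were negative), as had 4 of the 6 licensing genes and 1 of 3 for clamp and loader. Among all members 7 were lower without overlap, 16.7% against 11% of all genes. Mcm6 had 12.78, 12.90 and 12.91 in mutant positive cells, against 13.17, 13.01 and 13.42 in mutant negative cells (-0.34 ± 0.13, adjusted p = 0.203). Rrm2, a subunit of ribonucleotide reductase, had 13.60, 13.33 and 13.63 against 13.81, 13.71 and 13.89 (-0.28 ± 0.11, adjusted p = 0.199). Ccnd2 had -0.32 and Cdk1 0.34, neither past the threshold. Mitosis genes had a median of 0.08, with 7 of 11 positive. Of 6 markers each, 6 cardiac, 2 endothelial and 2 dissociation stress markers were higher in mutant positive cells, and 5 neural and 3 paraxial markers were lower. Epithelial markers went both ways, 4 lower and 1 higher, the keratin gene Krt8. The actin 3′ to 5′ gap, which widens in degraded RNA, was 1.40 to 1.62 log2 in mutant positive and 1.87 to 2.72 in mutant negative cells, without overlap. The part of these in the member values was not tested.

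In negative cells, mutants and wild types did not differ past the threshold in any member, and 0% of all genes were called. By unadjusted p under 0.05 there were 3 members, Ccne2 (-0.49 ± 0.19), Cenpa (0.26 ± 0.11) and Cdt1 (0.22 ± 0.10), 7.14% against 5.22% of all genes (limma adjusted p = 0.929 for each). At the brightest probe sets, the 95% interval lay within 2-fold for all 42 members and for 94.9% of all genes. A dimmer Mcm5 probe set had a difference of -1.21 log2 and a dimmer Cenpa probe set one of 1.30. In the fit of all probe sets, 0 of the members' probe sets were called. Ccnd2 differed by 0.10 log2 (95% interval -0.33 to 0.53), Pcna by -0.07 (-0.28 to 0.13) and Mki67 by -0.05 (-0.44 to 0.34).

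The difference between these sort effects, mutant minus wild type, passed for no member, against 2.58% of all genes. At an unadjusted p under 0.05 there was 1 member, Pcna (0.35 ± 0.13 log2, 95% interval 0.06 to 0.64, adjusted p = 0.259), 2.38% against 12.3% of all genes. For Ccnd2 it was 0.51 ± 0.27 (adjusted p = 0.511) and for Ccnd1 -0.39 ± 0.21 (0.512). Of the 42 intervals 32 lay within 2-fold (77.1% of all genes), and those of the other 10 reached past it. These values are from the fit without pairs. With the positive and negative arrays of a number as a block, 0 members passed either, against 797 of 18193 genes. Limma's adjusted p was then 0.0742 for Aurka (0.67 ± 0.17), 0.142 for Birc5 (0.49 ± 0.16), 0.1625 for Ccnd1, 0.187 for Ccnd2 and 0.218 for Pcna. These genes, Cdk4 and Gins2 had an unadjusted p under 0.05 in that fit, whose share over all genes is not given here. Ccnd2 and Pcna are thus not shown to differ between positive and negative cells by another amount in mutants than in wild types.

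How the members varied together within groups was described by correlating, over the 12 arrays, their deviations from the group means. These values share arrays and RNA preparations and carry no p. Within the 11 mitosis genes the median r over 55 pairs was 0.47 (mean 0.23), within the 18 replication genes 0.06 (mean 0.06), and the mean over all pairs of genes was 0.02. Close pairs included Cdk1 with Cdk4 (0.95), Cdk1 with Birc5 (0.95), Mcm3 with Mcm5 (0.95), Mcm7 with Mcm10 (0.94) and Cdk4 with Aurkb (0.94). Cdk4 is not a mitosis gene by role, and its 2 dimmer probe sets followed the brightest (0.91 and 0.97). Bub1, a checkpoint kinase, varied opposite to Plk1 (r = -0.93), and its dimmer probe set did not follow its brightest (r = -0.31). Among the other mitosis genes with more than 1 probe set, r with the brightest was high for Aurkb (0.95) and Cdc20 (0.79 and 0.95), mixed for Bub1b (0.85 and -0.0021), and lower for Aurka (0.24), Cenpa (0.53 and -0.13) and Top2a (0.40 and -0.72).

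Both mutant arrays numbered 2 were low for most mitosis genes. In mutant positive cells Aurkb had 10.71, 9.96 and 10.63 and Cdk1 had 12.50, 11.80 and 12.17. In mutant negative cells Aurkb had 10.63, 9.96 and 10.62 and Plk1 had 10.33, 9.64 and 10.41. Array 2 was the lowest of 3 for 8 of 11 mitosis genes in mutant positive and 9 of 11 in mutant negative cells. The same share over all genes is not given here, so a shift of the whole array cannot be told apart by these counts. The mean over the 11 genes was 11.78, 11.48 and 11.77 in mutant positive, 11.70, 11.27 and 11.67 in mutant negative, 11.44, 11.37 and 11.46 in wild-type positive and 11.38, 11.43 and 11.44 in wild-type negative cells. The spread between mutant arrays was thus 0.17 and 0.24 log2 (SD, positive and negative), against 0.05 and 0.03 between wild-type arrays. The r values among mitosis genes above include these mutant arrays, and how far they rest on them was not tested. The actin gap was 2.72 on mutant negative array 2, against 1.87 and 2.20 on arrays 1 and 3, and 1.40 on mutant positive array 2, against 1.57 and 1.62. Gaps of 3.05 and 2.62 on wild-type positive arrays 1 and 2, and of 3.14 on wild-type negative array 1, stood beside mitosis means that deviated from those of their groups by 0.02, -0.05 and -0.04 log2. The part of RNA integrity in the mitosis values was not tested.

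Over the 18 replication genes the array means were 11.82, 11.77 and 11.73 in mutant positive, 11.93, 11.80 and 11.94 in mutant negative, 11.71, 11.62 and 11.70 in wild-type positive and 11.83, 11.88 and 11.88 in wild-type negative cells. The 3 wild-type positive arrays were the lowest of the 12.

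**Figure D4:**
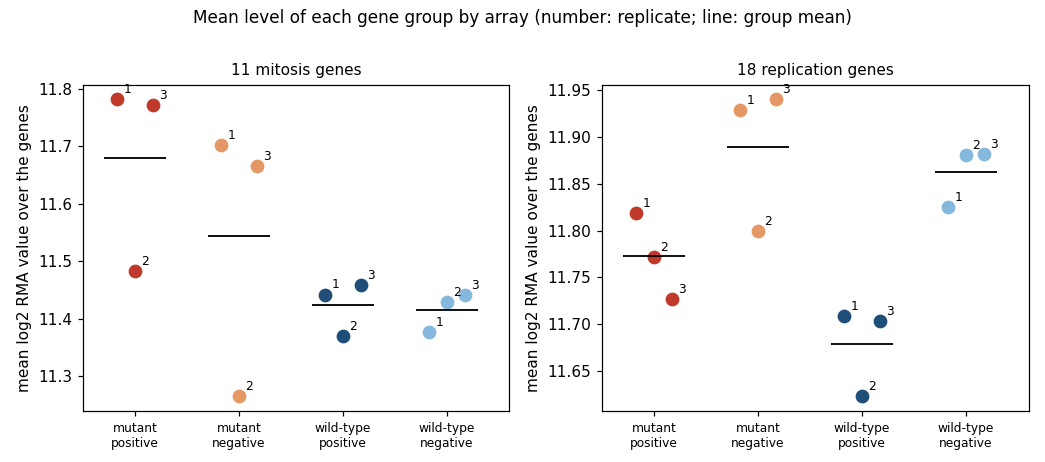
Mean log2 RMA value (y axis) of the 11 mitosis genes (left) and the 18 replication genes (right) on each array, by group (x axis); numbers are replicates and lines group means. Mutant arrays numbered 2 are low for mitosis genes, and the wild-type positive arrays are the lowest for replication genes.

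Other genes of the same pathways, 100 measured of 103 listed, set the members beside their regulators. In wild-type positive against wild-type negative cells 4 of the 100 passed, against 8.24% of all genes (3.61% lower), all of them lower in positive cells, and none of them was a replication or mitosis gene. Mycn, a Myc-family factor that promotes growth and division, had 11.58, 11.93 and 11.77 in wild-type positive cells, against 12.50, 12.55 and 12.86 in wild-type negative cells. It fell 1.83-fold (-0.87 ± 0.13 log2, limma adjusted p = 0.0017). Gas1, a membrane protein first known for blocking entry into S phase, had 11.20, 11.17 and 11.20 against 12.02, 11.88 and 12.19 (-0.84 ± 0.14, adjusted p = 0.00309). Both calls held under all 22 alternatives. Mycl, another Myc-family gene, had 6.96, 7.37 and 7.36 against 8.48, 8.27 and 9.22 (-1.43 ± 0.27, adjusted p = 0.00661; 0.0516 with the mean of probe sets and 0.0628 without both wild-type arrays numbered 1), and its 2 dimmer probe sets had 0.13 and -0.02. Cdkn1a, encoding the Cdk inhibitor p21, had 8.37, 7.95 and 8.30 against 9.10, 8.85 and 9.17 (-0.84 ± 0.20, adjusted p = 0.0259, lost under 5 of 22 alternatives). Of 37 other replication genes 0 passed and 32 had a negative difference, with a median of -0.21, and of 37 other mitosis genes 0 passed and 19 were negative, with a median of -0.01.

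Mutant positive cells differed from wild-type positive cells in 3 of the 100 genes, against 7.97% of all genes. Mycn had 12.38, 12.44 and 12.09 in mutant positive cells, against 11.58, 11.93 and 11.77 in wild-type positive cells, and rose by 0.54 ± 0.13 log2 (limma adjusted p = 0.029, lost under 7 of 22 alternatives). Gas1 rose by 0.51 ± 0.14 (0.0487, lost under 15) and Orc2, of the origin recognition complex, fell by 0.38 ± 0.10 on the log2 scale (0.0417, lost under 14).

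In mutant positive against mutant negative cells 7 of the 100 passed, 3 higher and 4 lower, against 5.36% of all genes. Cdkn1c, encoding the Cdk inhibitor p57, had 12.45, 12.84 and 12.36 in mutant positive cells, against 11.14, 10.89 and 10.51 in mutant negative cells. It rose 3.25-fold (1.70 ± 0.23 log2, limma adjusted p = 0.00135). Rb1, encoding the retinoblastoma protein, had 7.76, 7.87 and 8.09 against 9.19, 9.48 and 9.38 and fell 2.72-fold (-1.44 ± 0.17, adjusted p = 0.000576). A dimmer Rb1 probe set was called too, at -0.54. Mycl had 7.80, 7.02 and 6.93 against 9.37, 8.93 and 9.16 (-1.91 ± 0.27, adjusted p = 0.00184), with 0.06 and -0.04 at its dimmer probe sets. These 3 calls held under all 22 alternatives. Gadd45a, a gene of growth arrest and DNA damage, had -1.49 ± 0.31 (0.0167), Cdkn2d, encoding the Cdk4 inhibitor p19, 0.62 ± 0.13 (0.0184) and Gins3, of the GINS complex, -0.46 ± 0.11 (0.0271), and each was lost under 5 to 8 alternatives. In negative cells 0 of the 100 differed between mutants and wild types (6 at an unadjusted p under 0.05, 6% against 5.22% of all genes).

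**Figure D5:**
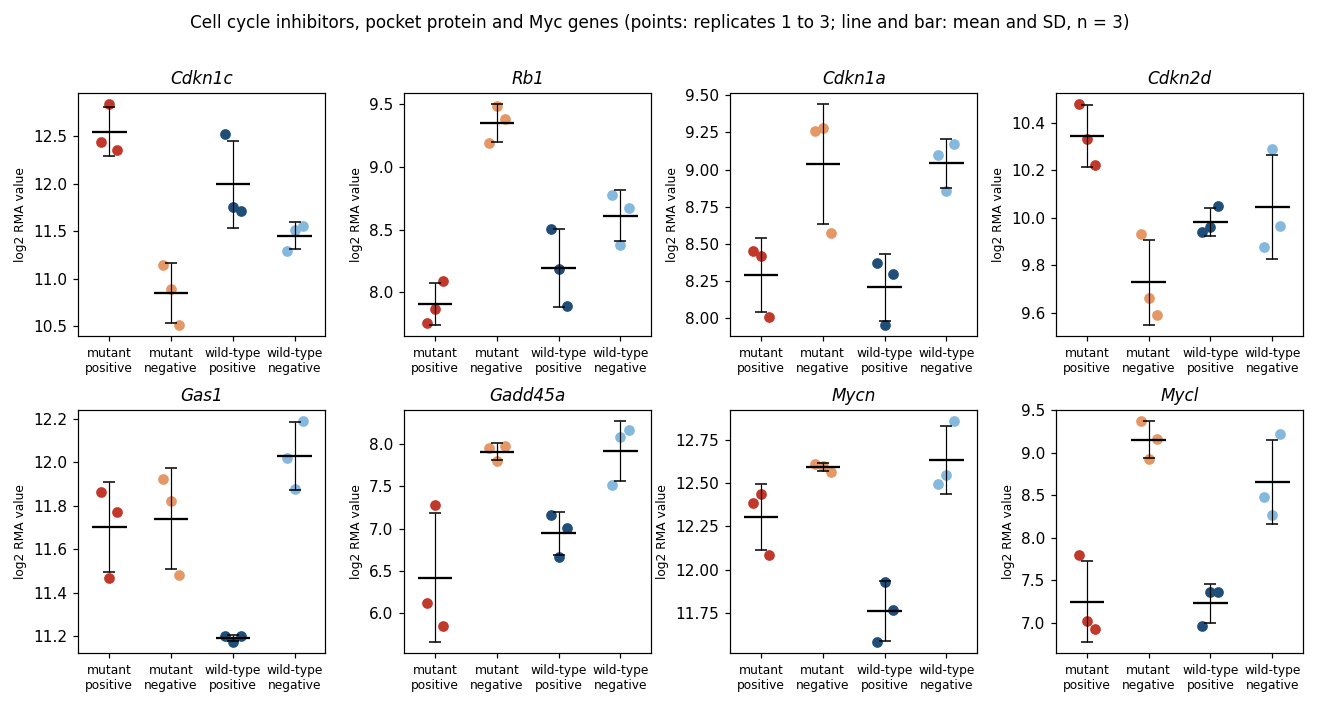
Log2 RMA value (y axis) of 8 inhibitor, pocket protein and Myc genes on each array, by group (x axis), with the mean and SD of 3 arrays. Cdkn1c is high and Rb1, Gadd45a and Mycl are low in mutant positive against mutant negative cells, and Mycn and Gas1 are lowest in wild-type positive cells.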

How the data were processed

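Expression was measured on 12 oligonucleotide arrays, 3 for each of 4 groups. Per the labels, trypsin freed the cells, a BD FACSAria sorted them, and Trizol RNA was amplified in repeated rounds and labelled with the MessageAmpII-Biotin Enhanced Kit. The deposited values are log2 expression values made with RMA, per the submitters' processing notes; no version is given in the sources used here. They were used as given. The number of arrays limits the precision.

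Of 45101 probe sets, 34945 had 1 symbol in the platform annotation, and the probe set with the highest mean stood for each of 18193 genes, with no filter on dim genes. Differences were fitted by lmFit, contrasts.fit and eBayes (limma 3.58.1, R 4.3.3) in 1 model of 4 group means with 8 residual degrees of freedom, which also gave 95% intervals. P-values were two-sided and adjusted by Benjamini-Hochberg over all genes within a comparison, with a threshold of 0.05 and no fold minimum. The fit was tested on simulated data. Any member could be named; other pathway genes were named when past the threshold, up to 6 per comparison by smallest p. The members and lists were chosen with earlier results of these data known.

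Same-numbered positive and negative arrays of a genotype deviated together from their group means (r = 0.55, 0.40 and 0.41 in mutants, 0.19, 0.10 and 0.20 in wild types, across genes). The pairs were therefore used as a block where that changed a call, for the interaction and for a few other members. The labels do not state this pairing. Across genotypes same-numbered arrays gave r from -0.24 to 0.0015. Alternatives were other probe set, normalization, filter, spread, block and sample choices. Without both mutant arrays numbered 2 was added after seeing the data. Promoter windows came from RefSeq (GRCm38.p6), matched by symbol.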

Additional observations from a re-analysis of the deposited data

Results flagged for a closer look

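Rb1, encoding the retinoblastoma protein that holds E2F factors, was singled out because its sort effect differed between genotypes by a test of the difference itself. Positive minus negative cells gave -1.44 ± 0.17 log2 in mutants and -0.42 ± 0.17 in wild types (SE, n = 3 per group), and the difference between these was -1.03 ± 0.23 (limma's interaction term, adjusted p = 0.0442). It was lost under 15 of 21 alternatives, with adjusted p between 0.0206 and 0.205. In a fit of all probe sets the same Rb1 probe set had an adjusted p of 0.075 and the dimmer one a difference of -0.21 (0.797). Rb1 averaged 9.35 (mutant) and 8.61 (wild type) among negative cells, but 7.91 and 8.19 among positive cells. The genotypes thus lay further apart without the reporter than with it, and neither of these genotype differences passed. Rb1 was the only one of the 100 other pathway genes called by the interaction term, 1% against 2.58% of all genes.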

How the results depend on the processing

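No result turned its direction while called. Members called in mutant positive against wild-type positive cells numbered 0, and 1 under quantile normalization and 2 with the mean of probe sets, the replicate block by number or without both mutant arrays numbered 2, with 0 to 1 when single arrays were left out. In wild-type positive against negative cells 2 were called, and 1 with equal array medians, without dim genes, with the replicate block by number, without both mutant arrays numbered 2 or with only the 2 groups, 0 without both wild-type arrays numbered 1, and 0 to 2 with single arrays left out. In mutant positive against negative cells 0 were called, 1 under quantile normalization, 4 with the pair block and 0 to 1 with single arrays left out. In the other comparisons 0 members were called throughout.

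Over all genes, mutant against wild-type positive cells gave 1450 calls, 844 with only the 2 groups and 1032 to 1589 with single arrays left out. Wild-type positive against negative cells gave 1499, 760 without both wild-type arrays numbered 1 and 1026 to 1484 with single arrays left out. Mutant positive against negative cells gave 975, 1486 with the pair block, 444 without both mutant arrays numbered 2 and 677 to 1000. Mutant against wild-type negative cells gave 0, 5 without both mutant arrays numbered 2 and 0 to 2. The interaction gave 469, 797 with the pair block, 279 without both mutant arrays numbered 2 and 299 to 486. The causes were not tested. Gins1 was called lower in wild-type positive cells without wild-type positive array 1 (limma adjusted p = 0.0283), and Tyms lower in mutant positive cells without wild-type positive array 2 (0.0299).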
